A study of Homo sapiens with 480 samples.

Results

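The 10 genes described here encode the 5 NF-kB subunits (NFKB1, NFKB2, RELA, RELB and REL), 3 IkB inhibitors that hold them in the cytoplasm (NFKBIA, NFKBIB and NFKBIE), the ubiquitin-editing enzyme TNFAIP3 and the caspase-8-like protein CFLAR. They were chosen by name and are 10 of the 20302 features in the table of expected counts. All 10 passed the filter on low counts, RELB only through the reads of J-Lat A2 cells with PMA, and 13560 genes were tested in all. The cells came from 2 human lines. J-Lat A2 is a single clone of the leukaemic T cell line Jurkat that carries an integrated HIV-derived construct (feature HIVmini), and Jurkat is its parent without the construct. J-Lat A2 is thus a model of viral latency in a leukaemic cell, not in a resting T cell. J-Lat A2 cells had 24 h with 1 ug/mL PMA (a phorbol ester, which switches on protein kinase C), with 1 uM SAHA (vorinostat, an inhibitor of histone deacetylases) or with 0.1% DMSO, the vehicle, and Jurkat cells had the same 3 exposures. Cells were sorted into 480 wells on 5 plates in 2 batches, and full-length cDNA was sequenced from each well without molecular identifiers.

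NF-kB proteins are dimers that the IkB proteins keep inactive until the IKK complex marks the IkB for degradation. In T cells, protein kinase C signals to IKK through a complex with BCL10 and MALT1, and the freed dimers bind kappaB sites, including sites at the genes of their own inhibitors. NFKBIA and TNFAIP3 are the best known of these negative feedback genes, and CFLAR, an inhibitor of death receptor signalling, is a further target. The same dimers bind the long terminal repeat of HIV.

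Of the 480 wells 410 were kept, namely 79 of 81 with PMA, 67 of 120 and 68 of 81 with SAHA in the 2 batches and 94 of 96 with DMSO for J-Lat A2, and 36 of 36 with PMA, 36 of 36 with SAHA and 30 of 30 with DMSO for Jurkat. Reads were summed over the kept wells of a group in each batch, which gave 9 sums of 4682180 to 36603815 counts. J-Lat A2 with SAHA, J-Lat A2 with DMSO and Jurkat with DMSO have a sum in both batches, and the other 3 groups have 1 sum, from the 3 plates of the second batch. Levels are TMM-normalised counts per 1000000 (CPM), except that levels of cell type markers and of single wells had no TMM factor. Levels were not divided by gene length, so they are compared between groups and not between genes. Calls are genes whose adjusted p was under 0.05 (edgeR quasi-likelihood test, Benjamini-Hochberg over the 13560 genes). The labels do not say that the batches or plates were separate cultures, so the spread behind the p-values may be technical. At least 9 of 10 T cell markers had counts in every sum. Among B cell markers CD22, CD79B and MS4A1 were at 0 and CD79A had counts, while 5 myeloid markers together reached at most 1.88 CPM. CD79A was at 88.9 CPM in the PMA sum, 3.71 and 8.20 CPM in the SAHA sums and 61.9 and 65.5 CPM in the DMSO sums of J-Lat A2. In Jurkat CD79A was at 48.95 CPM in the PMA sum, 0.312 CPM in the SAHA sum and 10.3 and 4.81 CPM in the DMSO sums. In J-Lat A2 the summed T cell markers were at 3694 CPM in the PMA sum, 645 and 510 CPM in the SAHA sums and 2271 and 2295 CPM in the DMSO sums. In Jurkat they were at 4258 CPM in the PMA sum, 579 CPM in the SAHA sum and 2635 and 2162 CPM in the DMSO sums. The summed T cell markers and CD79A were thus lowest with SAHA and highest with PMA in both lines. Single T cell markers did not all follow this order. ZAP70 was lower with PMA than in either DMSO sum in both lines. In J-Lat A2, CD3G and LCK were higher in the first-batch DMSO sum than with PMA. CD5 was higher with SAHA than with DMSO in each batch of J-Lat A2. The part of these markers in the results was not tested.

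PMA-treated J-Lat A2 cells had higher levels of 3 of the genes, TNFAIP3, CFLAR and NFKBIA, than SAHA-treated J-Lat A2 cells, and these were the only calls among the 10 genes in the 8 contrasts tested. No member was called between either drug and DMSO in either line. Among members with counts in both groups, the largest fitted differences from DMSO were those of NFKB1 with SAHA in Jurkat and of TNFAIP3 with PMA, at about the same size in both lines. The plates of each drug overlapped those of DMSO for the subunit genes RELA and REL. RELB had reads in J-Lat A2 cells with PMA alone, and NFKB2 and NFKBIE had reads in few or no wells of each group.

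TNFAIP3 encodes an enzyme that removes activating ubiquitin chains from the proteins that relay the signal to IKK (chromosome 6, 137867188 to 137883312, plus strand, GRCh38). In J-Lat A2 cells the level of TNFAIP3 was 70.8, 89.7 and 77.5 CPM on the 3 plates with PMA. The 5 plates of J-Lat A2 cells with SAHA gave TNFAIP3 levels of 6.52, 16.2, 6.56, 13.7 and 10.7 CPM, and the 5 with DMSO gave 14.5, 21.1, 0, 18.5 and 16.2 CPM. Every PMA plate lay above every SAHA and every DMSO plate, and the SAHA and DMSO plates overlapped. In Jurkat cells TNFAIP3 was at 34.3, 40.3 and 66.2 CPM with PMA, 9.28, 21.9 and 18.1 CPM under SAHA and 4.73, 14.8, 1.23, 4.95 and 16.7 CPM under DMSO. Here too the PMA plates lay above all others, while the SAHA and DMSO plates overlapped.

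Between PMA and SAHA in J-Lat A2 cells, the log2 change of TNFAIP3 was 3.03 ± 0.59 (SE; adjusted p = 0.0202 by edgeR, higher on 3 of 3 plates). The call was lost without plate P2770 (log2 change 3.15, adjusted p = 0.0662), without plate P2771 (3.30, adjusted p = 0.0543) and within the second batch alone (3.08, adjusted p = 0.0815, plates as units). Without the second-batch sum of J-Lat A2 with SAHA it was 3.23 (adjusted p = 0.0962). Against DMSO the log2 change of TNFAIP3 with PMA was 2.61 ± 0.60 in J-Lat A2 cells (SE; adjusted p = 0.0632 by edgeR, 3 of 3 plates higher) and 2.57 ± 0.59 in Jurkat cells (adjusted p = 0.0575, 3 of 3 plates higher), and neither passed the threshold. Both passed by the DESeq2 Wald test, with adjusted p = 0.00363 in J-Lat A2 and adjusted p = 0.00492 in Jurkat. Neither passed by limma with equal weight per well, a fit that called 0 of the 13560 genes in every contrast. By edgeR the J-Lat A2 value passed without the second-batch SAHA sum (2.66, adjusted p = 0.0486) or either Jurkat DMSO sum (2.66 and 2.65, adjusted p = 0.0321 and 0.0389), and the Jurkat value without either SAHA sum of J-Lat A2 (2.63 and 2.62, adjusted p = 0.0468 and 0.0413). The difference between the PMA responses of the 2 lines was 0.03 ± 0.82 on the log2 scale (SE; adjusted p = 1 by edgeR), an SE that allows a difference in either direction. With SAHA the log2 change of TNFAIP3 was -0.42 ± 0.47 in J-Lat A2 cells (adjusted p = 0.694) and 1.09 ± 0.60 in Jurkat cells (adjusted p = 0.409). Over the alternatives these SAHA values ran from -0.68 to 0.25 in J-Lat A2 and from 0.70 to 1.85 in Jurkat. The difference between these SAHA responses, J-Lat A2 minus Jurkat, was -1.51 ± 0.75 (SE; adjusted p = 1 by edgeR), and it was not called.

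CFLAR competes with caspase-8 at death receptors and so restrains apoptosis (chromosome 2, 201116104 to 201176687, plus strand). CFLAR was at 85.8, 96.1 and 150.3 CPM on the plates of J-Lat A2 cells with PMA, against 23.6, 20.6, 9.60, 7.70 and 7.70 CPM under SAHA and 26.3, 20.8, 22.1, 56.3 and 3.89 CPM under DMSO. In Jurkat cells CFLAR was at 89.9, 57.4 and 54.4 CPM with PMA, 12.1, 6.40 and 18.4 CPM under SAHA and 24.3, 17.5, 62.03, 29.1 and 14.1 CPM under DMSO. The PMA plates of J-Lat A2 lay above all SAHA and DMSO plates, whereas in Jurkat 1 DMSO plate lay within the PMA range. The log2 change of CFLAR between PMA and SAHA in J-Lat A2 was 2.98 ± 0.66 (SE; adjusted p = 0.0360 by edgeR, 3 of 3 plates higher). It was 3.79 within the second batch alone (adjusted p = 0.00597, plates as units), and the call was lost without plate P2771 (2.50, adjusted p = 0.174) and without the second-batch sum of J-Lat A2 with SAHA (1.89, adjusted p = 0.229). Against DMSO the log2 change of CFLAR with PMA was 2.13 ± 0.61 in J-Lat A2 (SE; adjusted p = 0.138 by edgeR, 3 of 3 plates higher) and 1.32 ± 0.60 in Jurkat (adjusted p = 0.383), neither past the threshold, though the first passed without the first-batch sum of Jurkat with DMSO (2.31, adjusted p = 0.0441). With SAHA it was -0.85 ± 0.50 in J-Lat A2 (adjusted p = 0.399, lower on 4 of 5 plates) and -1.15 ± 0.65 in Jurkat (adjusted p = 0.433, lower on 2 of 3 plates). The first was -0.05 without the second-batch SAHA sum of J-Lat A2 and -1.89 without its first-batch one, and the Jurkat value was -0.29 without the second-batch DMSO sum and -1.90 without plate P2771. The gene overlaps an antisense gene, CFLAR-AS1, and the library kit does not keep strand, so reads of the pair cannot be told apart.

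**Figure D1:**
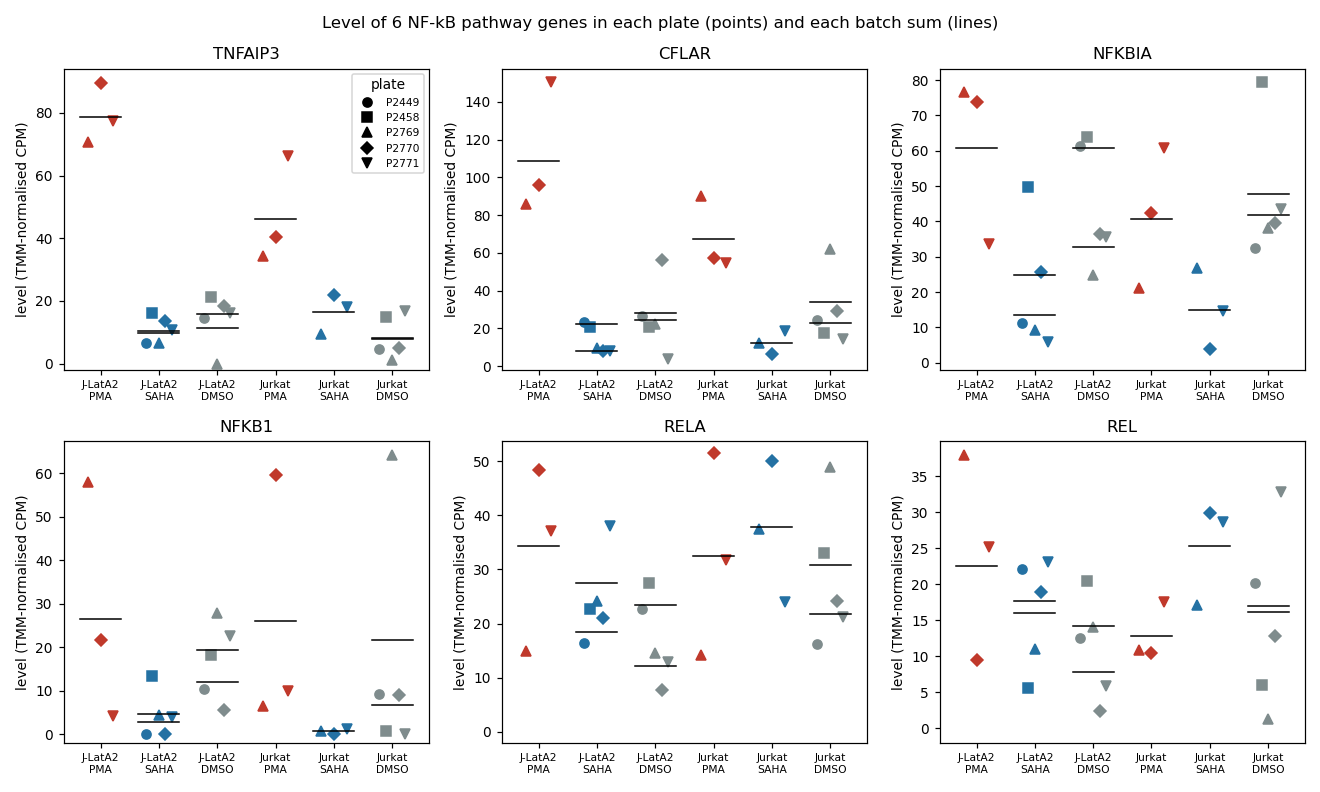
Level of TNFAIP3, CFLAR, NFKBIA, NFKB1, RELA and REL (TMM-normalised CPM, vertical axis) in the 6 groups, with 1 point per plate, the marker shape giving the plate, and a line at each batch sum. TNFAIP3 was at 70.8 to 89.7 CPM on the PMA plates of J-Lat A2 and at 0 to 21.1 CPM on its DMSO plates, while the RELA and REL points of the treatments overlap.

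NFKBIA encodes IkB-alpha, the inhibitor that is degraded and made again fastest after a signal (chromosome 14, 35401511 to 35404749, minus strand). In J-Lat A2 cells its level was 76.6, 73.9 and 33.6 CPM on the plates with PMA, 11.4, 49.9, 9.32, 25.6 and 5.84 CPM under SAHA and 61.4, 63.9, 24.9, 36.4 and 35.5 CPM under DMSO. In Jurkat cells NFKBIA was at 21.1, 42.5 and 60.7 CPM with PMA, 26.7, 3.96 and 14.5 CPM under SAHA and 32.5, 79.5, 38.2, 39.6 and 43.5 CPM under DMSO. The SAHA plates were the low ones in both lines, with no overlap with DMSO in Jurkat and some in J-Lat A2, and the PMA and DMSO plates overlapped. PMA and SAHA plates overlapped in both lines, with SAHA at 49.9 and PMA at 33.6 CPM in J-Lat A2, and 26.7 and 21.1 CPM in Jurkat. The SAHA plate at 49.9 CPM, P2458, holds a single well at 991.4 CPM. NFKBIA was higher with PMA than with SAHA in J-Lat A2 by a log2 change of 2.05 ± 0.47 (SE; adjusted p = 0.0426 by edgeR, 3 of 3 plates higher). This call was lost without any 1 of the 3 plates of the second batch, with log2 changes of 1.77 without P2769 (adjusted p = 0.0959), 2.42 without P2770 (adjusted p = 0.083) and 2.13 without P2771 (adjusted p = 0.0763), and within the second batch alone (2.21, adjusted p = 0.0785). It was also lost with all wells kept (1.73, adjusted p = 0.136) and without either DMSO sum (2.02 and 1.98, adjusted p = 0.0803 and 0.0782) or either SAHA sum (2.18 and 1.84, adjusted p = 0.0528 and 0.255) of J-Lat A2. Against DMSO the log2 change of NFKBIA with SAHA was -1.28 ± 0.37 in J-Lat A2 (SE; adjusted p = 0.0682 by edgeR, lower on 5 of 5 plates) and -1.26 ± 0.50 in Jurkat (adjusted p = 0.220, lower on 3 of 3 plates), neither past the threshold. The first of these passed by the DESeq2 Wald test (adjusted p = 0.0217) and, by edgeR, without either Jurkat DMSO sum (-1.29 and -1.28, adjusted p = 0.0386 and 0.0413). With PMA the log2 change of NFKBIA against DMSO in J-Lat A2 was 0.77 ± 0.47 (adjusted p = 0.629). Over the alternatives the SAHA values of NFKBIA ran from -1.61 to -0.81 in J-Lat A2 and from -2.07 to -0.68 in Jurkat, and the PMA value from 0.38 to 1.04.

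Among the other inhibitors, NFKBIB, the IkB-beta gene, was at 5.45 to 8.33 CPM on the plates with PMA, 3.09 to 4.96 CPM with SAHA and 2.43 to 9.51 CPM with DMSO in J-Lat A2. In Jurkat NFKBIB was at 2.43 to 7.03 CPM with PMA, 2.52 to 5.18 CPM with SAHA and 1.64 to 14.3 CPM with DMSO. These ranges overlap except those of PMA and SAHA in J-Lat A2, and no difference passed the test. NFKBIB overlaps the coding gene SIRT2, so part of its reads could belong to SIRT2. NFKBIE, the IkB-epsilon gene, had reads in 3 of 79, 5 and 3 of 94 J-Lat A2 wells with PMA, SAHA and DMSO, and in 3 of 36, 4 of 36 and 3 of 30 Jurkat wells. No order of its levels can be read from so few wells.

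**Figure D2:**
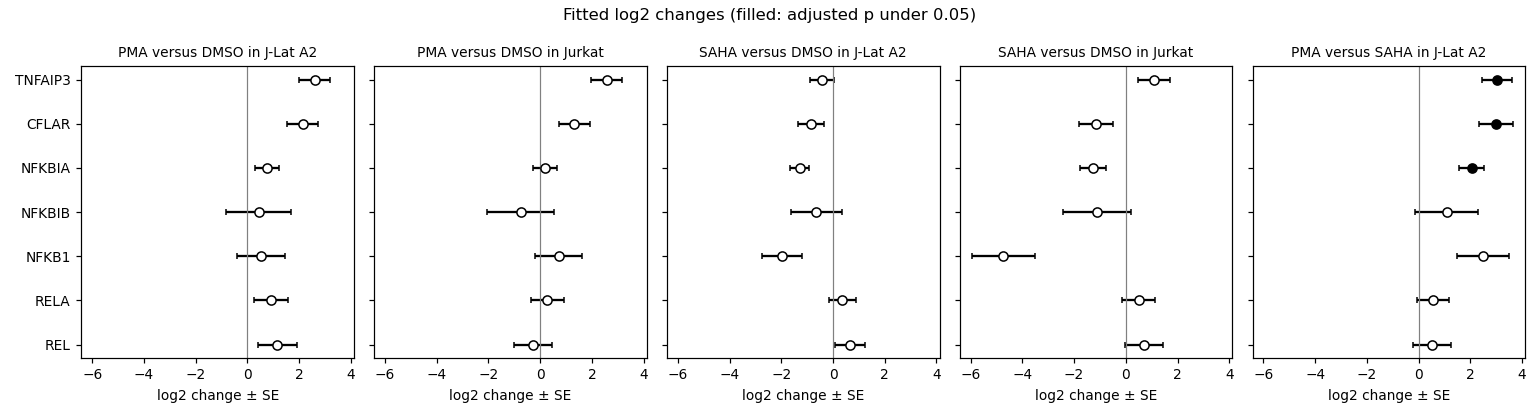
Fitted log2 changes of 7 genes (points, with bars of 1 SE on either side) in 5 contrasts, the first-named treatment over the second, with filled points where the adjusted p is under 0.05. The filled points are TNFAIP3 (3.03), CFLAR (2.98) and NFKBIA (2.05) in PMA versus SAHA in J-Lat A2.

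NFKB1 encodes a precursor that is cut to a DNA-binding subunit, the usual partner of RELA (chromosome 4, 102501329 to 102617302, plus strand). Its level in J-Lat A2 was 58.1, 21.7 and 4.11 CPM on the plates with PMA, 0, 13.3, 4.34, 0 and 3.98 CPM under SAHA and 10.3, 18.2, 27.8, 5.51 and 22.5 CPM under DMSO. In Jurkat NFKB1 was at 6.52, 59.5 and 9.88 CPM with PMA, 0.629, 0 and 1.20 CPM under SAHA and 9.17, 0.674, 64.1, 9.03 and 0 CPM under DMSO. SAHA plates were low in both lines, but they overlapped the DMSO plates, and the DMSO plates of Jurkat alone ranged from 0 to 64.1 CPM. The log2 change of NFKB1 with SAHA was -1.96 ± 0.78 in J-Lat A2 (SE; adjusted p = 0.177 by edgeR, lower on 5 of 5 plates) and -4.73 ± 1.21 in Jurkat (adjusted p = 0.0635, lower on 2 of 3 plates), neither past the threshold. The Jurkat value rests on 11 counts in 2 of 36 SAHA wells against 219 counts in 8 of 30 DMSO wells. It passed by the DESeq2 Wald test, as did no other member in that contrast. By edgeR it passed without either SAHA sum of J-Lat A2 (-4.98 and -4.96, adjusted p = 0.0281 and 0.0233) or without the first-batch Jurkat DMSO sum (-5.21, adjusted p = 0.0193). It was -3.07 without plate P2769, which holds the DMSO level of 64.1 CPM (adjusted p = 0.247), and -3.45 without the second-batch Jurkat DMSO sum. By limma with equal weight per well, which called no gene in any contrast, it was -2.87 (adjusted p = 0.320). Over 17 alternatives it ran from -6.08 to -2.87 and passed in 5, and the J-Lat A2 value ran from -3.11 to -1.13 and passed in 0. The difference between the SAHA responses of the lines was 2.77 ± 1.33 (SE; adjusted p = 1 by edgeR), not called. Between PMA and SAHA in J-Lat A2 the log2 change of NFKB1 was 2.49 ± 0.99 (adjusted p = 0.270, higher on 3 of 3 plates), and 1.32 to 3.34 over the alternatives.

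RELA and REL encode subunits with transactivation domains (RELA on chromosome 11, 65653596 to 65663094, minus strand, and REL on chromosome 2, 60881521 to 60931610, plus strand). RELA was at 14.9, 48.4 and 36.99 CPM on the plates with PMA in J-Lat A2, 16.4 to 38 CPM with SAHA and 7.65 to 27.4 CPM with DMSO, and at 14.1 to 51.4, 23.9 to 50.0 and 16.3 to 48.9 CPM with PMA, SAHA and DMSO in Jurkat. REL was at 37.97, 9.51 and 25.2 CPM with PMA in J-Lat A2, 5.57 to 23.1 CPM with SAHA and 2.45 to 20.5 CPM with DMSO, and at 10.4 to 17.5, 17.1 to 29.9 and 1.23 to 32.7 CPM with PMA, SAHA and DMSO in Jurkat. All these ranges overlap between a treatment and its DMSO plates. With PMA in J-Lat A2 the log2 change against DMSO was 0.91 ± 0.66 for RELA (SE; adjusted p = 0.715 by edgeR) and 1.16 ± 0.75 for REL (adjusted p = 0.658), each higher on 3 of 3 plates. Over the alternatives RELA ran from 0.01, without the second-batch DMSO sum of J-Lat A2, to 1.5, without the first-batch one, and REL from 0.55 to 1.67.

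RELB and NFKB2 form the dimer of the noncanonical pathway. RELB had 52 counts in 8 of 79 J-Lat A2 wells with PMA, on plates P2770 (5 of 27 wells) and P2771 (3 of 26 wells), and 50% of these counts came from 1 well. It had 0 counts in every other group, which allows a share of wells with a detected read of up to 3.85% in 94 J-Lat A2 wells with DMSO and up to 9.74% in 36 Jurkat wells with PMA (95% Clopper-Pearson). These limits do not bound the share of cells that express RELB. Against a floor of 3 counts over the group, RELB was at least 21.7-fold higher with PMA than with DMSO in J-Lat A2, and it was not called (adjusted p = 0.801 by edgeR). NFKB2 had reads in 4 of 79, 6 and 8 of 94 J-Lat A2 wells with PMA, SAHA and DMSO, and in 3 of 36, 1 of 36 and 0 of 30 Jurkat wells, the last of which allows a share of wells with a read of up to 11.6% (95% Clopper-Pearson).

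Counted over the 10 genes, edgeR called 0 for PMA versus DMSO in J-Lat A2 (background 1.98% of genes), 0 for SAHA versus DMSO in J-Lat A2 (8.43%), 0 for PMA versus DMSO in Jurkat (2.27%) and 0 for SAHA versus DMSO in Jurkat (4.22%). At an unadjusted p under 0.05 the counts in that order were 2, 2, 1 and 2, where 1636, 2856, 1842 and 2328 of the 13560 genes passed. By DESeq2 they were 2, 1, 1 and 1, where 742, 1987, 868 and 1296 genes were called. By limma with equal weight per well they were 0 in each, and that fit called 0 of the 13560 genes in these contrasts. For PMA versus SAHA in J-Lat A2, 3 of 10 were called, all higher, where 3.62% of all genes were called and 2.25% were called higher. Between the lines under DMSO, J-Lat A2 versus Jurkat, no member was called (background 0.398%). None had an unadjusted p under 0.05, where 1260 of the 13560 genes did, and DESeq2 called 0, where 425 genes were called. For the difference between the lines in response, no member was called for SAHA (background 0.00737%) or for PMA (background 0.0221%), by edgeR or by DESeq2, and none had an unadjusted p under 0.05. Leaving out members with at most 3 counts in both groups, the median log2 change of the members was 1.02 for PMA in J-Lat A2 (10 members, against 0.04 over all tested genes) and -0.65 for SAHA in J-Lat A2 (9 members, against 0.12). In Jurkat it was 0.28 for PMA (9 members, against 0.07) and -0.31 for SAHA (8 members, against 0.11). The medians over all tested genes had no such filter. Without it the fitted medians of the 10 members were 1.02 and -0.54 for PMA and SAHA in J-Lat A2, and 0.23 and 0.25 in Jurkat. The sign for SAHA in Jurkat thus depended on the filter. The 10 members for PMA in J-Lat A2 include RELB, tested only through its reads in that group. The 2 contrasts of a line share its DMSO wells.

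The promoters of the 3 called genes and of NFKB1 are shown because they hold matches to the kappaB consensus, the sequence that NF-kB dimers bind. They run from 250 bases before to 50 after the annotated start (RefSeq, GRCh38.p14), 5′ to 3′ on the gene's strand, with the matches in capitals. The windows are TNFAIP3 at chr6:137867009-137867308 (plus strand), CFLAR at chr2:201118466-201118765 (plus strand), NFKBIA at chr14:35404700-35404999 (minus strand) and NFKB1 at chr4:102501109-102501408 (plus strand).
TNFAIP3: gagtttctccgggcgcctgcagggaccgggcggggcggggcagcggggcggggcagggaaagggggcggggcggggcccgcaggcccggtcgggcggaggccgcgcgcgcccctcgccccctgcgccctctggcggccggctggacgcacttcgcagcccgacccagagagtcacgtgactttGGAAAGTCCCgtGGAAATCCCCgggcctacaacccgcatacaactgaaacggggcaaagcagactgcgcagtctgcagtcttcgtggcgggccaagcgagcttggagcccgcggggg
CFLAR: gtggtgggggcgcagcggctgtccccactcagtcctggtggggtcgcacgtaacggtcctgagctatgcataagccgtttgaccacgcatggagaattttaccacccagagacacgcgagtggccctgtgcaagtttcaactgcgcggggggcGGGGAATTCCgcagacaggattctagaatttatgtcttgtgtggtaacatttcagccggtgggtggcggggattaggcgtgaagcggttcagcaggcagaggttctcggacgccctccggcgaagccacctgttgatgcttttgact
NFKBIA: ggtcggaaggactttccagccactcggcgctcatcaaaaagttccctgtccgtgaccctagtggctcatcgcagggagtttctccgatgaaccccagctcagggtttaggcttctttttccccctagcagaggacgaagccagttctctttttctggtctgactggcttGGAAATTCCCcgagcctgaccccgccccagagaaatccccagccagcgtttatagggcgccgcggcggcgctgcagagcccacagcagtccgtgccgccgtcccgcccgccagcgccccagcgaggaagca
NFKB1: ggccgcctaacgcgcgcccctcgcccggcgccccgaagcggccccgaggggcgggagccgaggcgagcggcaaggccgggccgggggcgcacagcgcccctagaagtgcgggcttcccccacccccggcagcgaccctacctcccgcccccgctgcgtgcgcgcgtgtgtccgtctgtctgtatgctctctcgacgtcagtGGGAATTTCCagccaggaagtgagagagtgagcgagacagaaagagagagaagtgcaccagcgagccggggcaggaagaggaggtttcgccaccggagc
TNFAIP3 has 2 matches close together, which begin 67 and 55 bases before the start. The match begins 97 bases before the start in CFLAR, 81 in NFKBIA and 49 in NFKB1. Other starts are annotated for CFLAR (4 entries in all) and NFKB1 (2 entries in all), and those windows hold no match. Of the 8 members with entries, 7 (all but RELA) had a match on either strand in at least 1 window, in 8 of 16 windows, against 11.27% of 35116 promoters in the table, and overlapping matches in a window were counted once. REL, NFKB2 and NFKBIB, which passed no test, had a match too. The AP-1 sequence TGACTCA was in 0 of the 16 windows, against 4.949% of all promoters, on either strand. At so low a share over all promoters, 0 of 16 windows says little about the members. A match describes the sequence and is not a measurement of binding.

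The share of wells with at least 1 read was counted beside the levels. TNFAIP3 had a read in 59 of 79 J-Lat A2 wells with PMA (74.7%, 95% Clopper-Pearson interval 63.6 to 83.8%), 16 of the 67 and 68 wells of the 2 batches with SAHA (11.9%, 6.93 to 18.5%) and 30 of 94 with DMSO (31.9%, 22.7 to 42.3%). By plate the TNFAIP3 shares in J-Lat A2 were 61.5, 74.1 and 88.5% with PMA, 4.55 to 18.2% with SAHA and 0 to 43.3% with DMSO, so the PMA plates did not overlap the others. In Jurkat TNFAIP3 had a read in 27 of 36 wells with PMA (75%), 14 of 36 with SAHA (38.9%) and 12 of 30 with DMSO (40%). With each well thinned to 100000 counts, which left out 2, 18 and 3 J-Lat A2 wells with PMA, SAHA and DMSO and no Jurkat well, the shares were 64.9, 12.8 and 24.2% in J-Lat A2 and 69.4, 36.1 and 26.7% in Jurkat. The intervals cover counting error only, and wells of a group are not replicates of its treatment.

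CFLAR had a read in 57 of 79 J-Lat A2 wells with PMA (72.2%), 41 with SAHA (30.4%) and 49 of 94 with DMSO (52.1%), and in 29 of 36 (80.6%), 19 of 36 (52.8%) and 22 of 30 (73.3%) Jurkat wells. The CFLAR shares at 100000 counts were 64.9, 21.4 and 41.8% in J-Lat A2 and 75, 36.1 and 66.7% in Jurkat, in the same order of treatments. The NFKBIA shares were 50.6, 17.8 and 51.1% with PMA, SAHA and DMSO in J-Lat A2 and 63.9, 30.6 and 76.7% in Jurkat. For NFKBIA the wells with SAHA were the low ones in both lines, and the intervals of PMA and DMSO overlapped. NFKB1 had a read in 24.1, 5.19 and 21.3% of J-Lat A2 wells and in 27.8, 5.56 and 26.7% of Jurkat wells, again lowest with SAHA. RELA, in contrast, had a read in 59.5, 57.04 and 56.4% of J-Lat A2 wells and in 80.6, 91.7 and 86.7% of Jurkat wells. REL had a read in 34.2, 28.1 and 35.1% of J-Lat A2 wells and in 47.2, 47.2 and 43.3% of Jurkat wells.

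**Figure D3:**
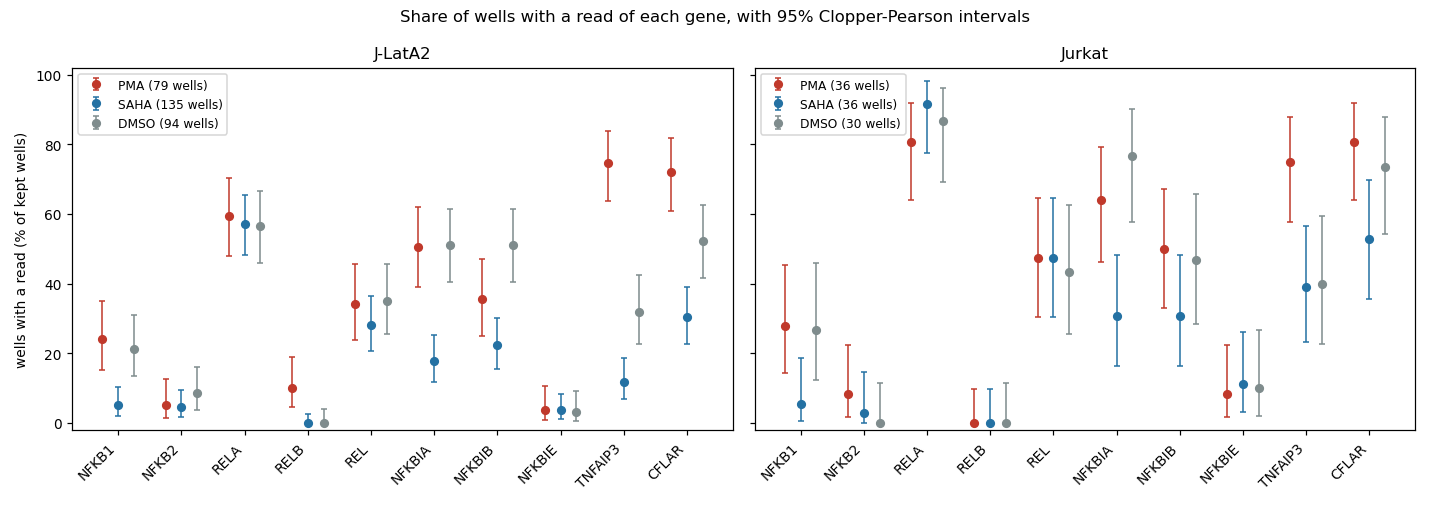
Share of kept wells with at least 1 read of each of the 10 genes (percent, vertical axis), by treatment in J-Lat A2 (left) and Jurkat (right), with 95% Clopper-Pearson intervals. TNFAIP3 is at 74.7, 11.9 and 31.9% of J-Lat A2 wells with PMA, SAHA and DMSO, while RELA is at 59.5, 57.04 and 56.4%.

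Within a group the levels were uneven from well to well. The median level of TNFAIP3 over J-Lat A2 wells was 56.9 CPM with PMA, and 0 CPM with SAHA and with DMSO, and the highest well was at 502.2, 183.8 and 121.1 CPM. The median level of CFLAR was 85.3 CPM with PMA, 0 CPM with SAHA and 1.59 CPM with DMSO in J-Lat A2, and 51.2, 1.89 and 27.4 CPM in Jurkat. The middle J-Lat A2 well with SAHA thus had no read of either gene, while the highest TNFAIP3 wells with SAHA and with DMSO lay above the PMA median. For NFKB1, 40.4% of the reads of J-Lat A2 with PMA came from 1 of 79 wells. The number of the 10 genes with a read in a well had a median of 4 with PMA, 2 with SAHA and 3 with DMSO in J-Lat A2, and of 4.5, 3 and 4 in Jurkat. With SAHA 25 J-Lat A2 wells had no read of any of the 10, with DMSO 5, and with PMA 0, while every Jurkat well had at least 1. The median number of all genes detected per well was 4484, 4458 and 5032 in J-Lat A2 with PMA, SAHA and DMSO and 5521, 5999 and 6093 in Jurkat. Its part in the shares of wells with a read was not tested.

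**Figure D4:**
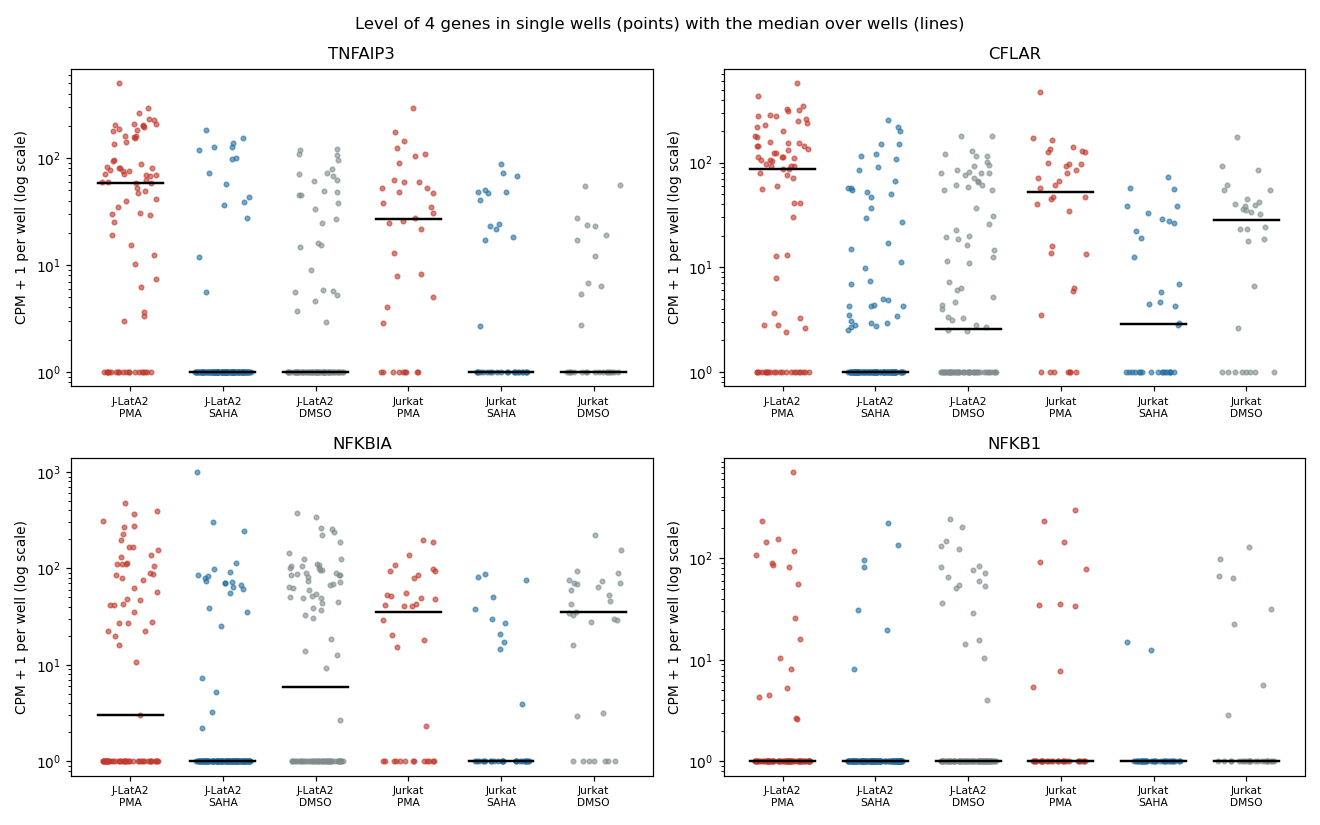
Level of TNFAIP3, CFLAR, NFKBIA and NFKB1 in each kept well (CPM + 1 on a log axis, 1 point per well, spread sideways for sight) with a line at the median, in the 6 groups. Median TNFAIP3 levels are 56.9 CPM with PMA and 0 CPM with SAHA and with DMSO in J-Lat A2, and wells with no read lie at the bottom of each panel.

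Across the wells of a group, Spearman's rho between pairs of TNFAIP3, CFLAR, NFKBIA, RELA and REL ranged from -0.27 (CFLAR and REL) to 0.46 (CFLAR and RELA), both over 30 Jurkat wells with DMSO. Over 36 Jurkat wells with PMA it was 0.32 between TNFAIP3 and RELA and 0.29 between NFKBIA and RELA. Between TNFAIP3 and CFLAR it was 0.22 over 79 J-Lat A2 wells with PMA, 0.05 over those with SAHA and 0.03 over 94 with DMSO, and 0.25, 0.19 and -0.11 over 36, 36 and 30 Jurkat wells. Between HIVmini and TNFAIP3 it was 0.19 over J-Lat A2 wells with PMA and 0.11 over those with SAHA, and between HIVmini and NFKBIA it was 0.06 and 0.12. Over all members compared with HIVmini the signs were mixed. The values ran from -0.18 (NFKBIB) to 0.19 (TNFAIP3) with PMA and from -0.09 (REL) to 0.12 (NFKBIA) with SAHA. Wells share plate and depth, most values are sparse, and these values are given as a description.

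Of 65 other genes of the pathway 64 were in the table and 49 were tested. No gene of the relay to IKK was called in any drug contrast (13 tested, among them PRKCQ, BCL10 and MALT1), and none of the noncanonical relay (4 tested) or of the other IkB-like proteins (2 tested of 3). With 1.98 to 8.43% of all genes called in these contrasts, 0 calls in lists this short say little about the lists. Over all 49 genes 1 was called higher and 0 lower for PMA versus DMSO in J-Lat A2 (background 1.98% of all genes), and 4 higher and 2 lower for SAHA versus DMSO (background 8.43%). In Jurkat the calls were 2 higher and 0 lower for PMA versus DMSO (background 2.27%) and 1 higher and 1 lower for SAHA versus DMSO (background 4.22%). PMA versus SAHA in J-Lat A2 gave 3 higher and 0 lower (background 3.62%). These counts are a few genes each, and nothing particular to the 49 genes is read from them. The median log2 change of the relay genes was 0.35 with PMA and 0.34 with SAHA in J-Lat A2, against 0.04 and 0.12 over all tested genes. Of the other brakes on the pathway (11 tested), TAX1BP1, an adaptor that brings TNFAIP3 to its substrates, rose with SAHA in J-Lat A2. TAX1BP1 was at 204 and 274 CPM in the SAHA sums against 121.8 and 130.4 CPM in the DMSO sums, a log2 change of 0.92 ± 0.23 (SE; adjusted p = 0.0394 by edgeR, 5 of 5 plates higher). It passed in 10 of the 17 alternatives, and among those that ended the call were the fits without plate P2770 (0.75, adjusted p = 0.159), without plate P2771 (0.91, adjusted p = 0.0948) and without the second-batch SAHA sum (0.59). A rise of like size was fitted for TAX1BP1 with PMA in J-Lat A2 (0.93 ± 0.29, adjusted p = 0.184 by edgeR, 3 of 3 plates higher). With SAHA in Jurkat it was 0.87 ± 0.30 (adjusted p = 0.159 by edgeR, 3 of 3 plates higher), and neither was called.

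Among ligands and receptors (5 tested of 12), CD40LG, which activates the noncanonical pathway in CD40-bearing cells, fell with SAHA in both lines. CD40LG was at 3.48 CPM with SAHA in Jurkat (4 of 36 wells) against 345 and 113.7 CPM with DMSO (19 of 30 wells), a log2 change of -6.66 ± 1.54 (SE; adjusted p = 0.0426 by edgeR, lower on 3 of 3 plates). In J-Lat A2 CD40LG was at 0 and 0.143 CPM with SAHA against 0.842 and 13.1 CPM with DMSO, a log2 change of -6.11 ± 1.49 (adjusted p = 0.0326 by edgeR) that rests on 1 SAHA well and 3 of 94 DMSO wells. It was lower on 2 and higher on 1 of 5 plates. It did not pass without plate P2769 (-2.03, adjusted p = 0.290) or without the second-batch DMSO sum (-2.54, adjusted p = 0.137). The Jurkat value was -6.52 without plate P2770 (adjusted p = 0.0567) and -7.22 without plate P2771 (adjusted p = 0.0823). PMA exceeded SAHA for CD40LG in J-Lat A2, at 41.1 CPM in 16 of 79 wells, by a log2 change of 8.57 ± 1.55 (adjusted p = 0.0144 by edgeR).

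Among target genes outside the pathway (14 tested of 22), IL2RA, the alpha chain of the receptor for IL2, rose with PMA in both lines. IL2RA was at 114.9 CPM in 40 of 79 J-Lat A2 wells with PMA and at 29.4 CPM in 5 of 36 Jurkat wells with PMA, against 0 counts with DMSO in either line (adjusted p = 0.00799 in J-Lat A2 and adjusted p = 0.0208 in Jurkat by edgeR). In J-Lat A2 that is at least 1716-fold higher, against a floor of 3 counts over the group. The calls did not pass by DESeq2 (adjusted p = 0.236 in J-Lat A2 and adjusted p = 0.448 in Jurkat), nor without the second-batch DMSO sum of the same line (adjusted p = 1 in each), nor the Jurkat call without plate P2771 (adjusted p = 0.0726). IL2RA was also called higher with PMA than with SAHA in J-Lat A2 (log2 change 5.62 ± 1.07, SE, adjusted p = 0.0296 by edgeR, 3 of 3 plates higher). This call was lost by DESeq2 (adjusted p = 0.641) and by limma with equal weight per well (adjusted p = 0.126), a fit that called no gene. It was also lost without plate P2769 (adjusted p = 0.0635), without plate P2771 (adjusted p = 0.134) and without the second-batch SAHA sum (adjusted p = 1). TNFAIP8, a regulator of cell death, was at 347 CPM with PMA in Jurkat against 73.3 and 84.8 CPM with DMSO, a log2 change of 1.87 ± 0.27 (SE; adjusted p = 0.00708 by edgeR). In J-Lat A2 TNFAIP8 was at 360 CPM with PMA, against 68.5 and 104.2 CPM with SAHA, a log2 change of 1.82 ± 0.26 (adjusted p = 0.00402 by edgeR). Against DMSO, at 104.5 and 179.2 CPM in J-Lat A2, the log2 change with PMA was 1.12 ± 0.26 (SE) and was not called. The Jurkat call was lost without the second-batch DMSO sum (1.55, adjusted p = 0.0688). CCR7, a lymph node homing receptor, rose with SAHA, to 8.99 and 17.6 CPM in 16 J-Lat A2 wells and to 32.7 CPM in 16 of 36 Jurkat wells, against 0 counts with DMSO, at least 218-fold and at least 142.3-fold higher (adjusted p = 0.00679 and adjusted p = 0.0222 by edgeR). The Jurkat call for CCR7 was lost without plate P2770 (adjusted p = 0.0570), without plate P2771 (adjusted p = 0.0600) and without the second-batch DMSO sum (adjusted p = 0.0987). With PMA, CCR7 had 100 counts in 3 of 79 J-Lat A2 wells and 246 counts in 8 of 36 Jurkat wells, against 0 with DMSO, and neither was called. In J-Lat A2 with SAHA, PLAU and IL2RA were also called higher, in 9 and 2 wells, and passed in 10 of 17 and 8 of 16 alternatives. IRF1, a transcription factor of interferon responses, fell there, at 16.4 and 15.0 CPM with SAHA against 41.7 and 40.8 CPM with DMSO, a log2 change of -1.39 ± 0.37 (SE; adjusted p = 0.0461 by edgeR, 5 of 5 plates lower). It passed in 8 of 17 alternatives, not without plate P2770 (-1.54, adjusted p = 0.0883), P2771 (-1.16, adjusted p = 0.150) or either SAHA or DMSO sum of J-Lat A2. In Jurkat IRF1 with SAHA was fitted at -1.41 ± 0.48 (adjusted p = 0.154 by edgeR, 3 of 3 plates lower), not called. PLAU had 99 counts with SAHA in Jurkat, and 92 in J-Lat A2 and 331 in Jurkat with PMA, against 0 with DMSO, none called. IL2RA, CCR7 and PLAU had 0 counts in every DMSO sum, so they passed the filter on low counts only through drug-treated groups. Their p-values and folds against DMSO carry that selection and are given as a description.

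The genes whose levels varied most in parallel with those of the 3 called members were taken from 5919 tested genes of at least 20 CPM. The measure was Pearson's r of log2(CPM + 1) over the 9 sums, as a description, and it does not compare the size of the changes. For TNFAIP3 they were IL16 (r = 0.958), TPM3 (0.954) and LIMS1 (0.954), of which LIMS1 was at 238 CPM with PMA, 45.9 and 39.99 CPM in the SAHA sums and 46.96 and 40.3 CPM in the DMSO sums of J-Lat A2. In the same order IL16 was at 213.9, 0.554 and 3.85, and 3.10 and 2.37 CPM, and TPM3 at 1962, 977 and 871, and 903 and 946 CPM. For CFLAR they were MED27 (r = 0.959), EVL (0.954) and HCLS1 (0.946), of which EVL was at 142.1 CPM with PMA, 8.10 and 2.63 CPM in the SAHA sums and 12.7 and 14.1 CPM in the DMSO sums of J-Lat A2. MED27 moved far less, at 146.9 CPM with PMA, 125.7 and 97.7 CPM in the SAHA sums and 123.4 and 121.5 CPM in the DMSO sums of J-Lat A2. For NFKBIA they included MTO1 (r = 0.967) and MTHFS (0.953), both at their lowest in the SAHA sums, with MTO1 at 161.1 CPM with PMA, 95.4 and 45.6 CPM in the SAHA sums and 170.8 and 112.2 CPM in the DMSO sums of J-Lat A2.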

How the data were processed

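The authors deposited a table of expected counts for 480 wells on 5 plates, with no depth normalisation. Per the submitters' processing notes, Salmon 1.5.1, alevin and GRCh38.p13 were used, with no role or order given; the annotation, read filters and handling of duplicates were not given in the sources used here. Batches were taken from the plate names (P2449 and P2458 first, P2769 to P2771 second), because the study states 2 and then 3 plates.

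Wells with a total of at least 1/10 of their plate's median and at least 500 genes were kept (totals 19756 to 984418, median 514679). Counts were summed per group and batch, rounded, and fitted in R 4.3.3 with edgeR 4.0.16 (TMM, filterByExpr, quasi-likelihood, group and batch as terms, 2 residual and 7.75 prior degrees of freedom), two-sided, which treats the batch as the block that pairs the groups, since the study ran 2 batches. Groups with 1 sum were assumed to vary like the others. The SE of an edgeR value was derived as its absolute log2 change over the square root of the F statistic, and is approximate. DESeq2 1.42.0 and limma 3.58.1 gave alternatives, and the code was tested on simulated data. Means of levels are not adjusted for batch, so their ratio need not equal the fold change. The libraries hold no molecular identifiers, so counting intervals cover counting error only. Symbols were found for 20270 IDs, and coordinates come from GENCODE release 29 (GRCh38). RefSeq promoters (GRCh38.p14) matched 8 members; RELB and NFKBIE were not among them.

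The members and the gene lists were chosen with earlier results of these data known. The text names all 10 members, up to 4 called genes of each list and contrast, and the 3 genes most like each called member, except for items that are not reported here.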

Additional observations from a re-analysis of the deposited data

How the results depend on the processing

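Of the 611 single-gene values recomputed under alternatives, 22 passed the threshold anew, 79 no longer passed it and 5 changed direction, while the others kept their direction and side of it. With 1 sum left out, IL2RA with SAHA in J-Lat A2 had no count in either group and gives no value. With equal weight per well, where 0 of all 13560 tested genes were called, the 3 calls for PMA versus SAHA in J-Lat A2 became 0. They became 1 (CFLAR) in the second batch alone and without plate P2770, and 0 without plate P2771. Leaving out 1 sum gave 0 to 3 there, the 0 without the second-batch sum of J-Lat A2 with SAHA. Leaving out a plate was added after seeing the data. For PMA versus DMSO in J-Lat A2 the 0 calls became 2 (TNFAIP3 and CFLAR) with DESeq2 and with plates as units, 1 (TNFAIP3) without the batch block, and 0 to 2 without 1 sum. For PMA versus DMSO in Jurkat they became 1 (TNFAIP3) with DESeq2, with plates as units and without the block, and 0 to 1 without 1 sum. For SAHA versus DMSO in Jurkat they became 1 (NFKB1) with DESeq2 and without the block, and 0 to 1 without 1 sum, and for SAHA versus DMSO in J-Lat A2 1 (NFKBIA) with DESeq2 and 0 to 1 without 1 sum. The TNFAIP3 log2 change with SAHA in J-Lat A2 was 0.25 in the second batch alone, and its difference between the PMA responses was -0.21 without plate P2769, -0.05 without plate P2771 and -0.23 to 0.30 without 1 sum. Over all tested genes, SAHA versus DMSO in J-Lat A2 gave 1143 calls by edgeR, 1987 by DESeq2 and 0 by limma with equal weight per well (2917 at an unadjusted p under 0.05), and PMA versus DMSO gave 269, 742 and 0 (1732). With plates as units, PMA versus DMSO gave 692 calls in J-Lat A2 and 830 in Jurkat over 11830 genes. As reported they were 269 and 308, and without the batch block 243 and 278. SAHA versus DMSO in Jurkat gave 572 calls, and 639 without the block. PMA versus SAHA in J-Lat A2 gave 491 calls, and 800 of 11465 in the second batch alone. Without plates P2770 and P2771 in turn it gave 325 of 13107 and 349 of 13150. Totals over all genes thus moved between settings too. The cause was not tested in any of these.

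Over the 17 alternatives, PMA versus SAHA in J-Lat A2 passed for TNFAIP3 in 12 (log2 change 2.81 to 3.30, adjusted p 0.000257 to 0.130), for CFLAR in 14 (1.89 to 3.79, adjusted p 0.000321 to 0.269) and for NFKBIA in 6 (1.67 to 2.42, adjusted p 0.00406 to 0.255), by edgeR, DESeq2 or limma. Limma with equal weight per well, among these alternatives, called no gene. TNFAIP3 with PMA versus DMSO passed in 6 in J-Lat A2 (2.17 to 3.34) and in 5 in Jurkat (2.38 to 3.11). With 2 residual degrees of freedom and 3 groups in 1 batch, changes that a larger design might separate were not detectable here.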
